A study of Drosophila melanogaster with 32 samples.

Results

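The genes described here are the core DNA replication machinery of Drosophila melanogaster: 37 genes for origin recognition, licensing, the MCM helicase and its activation, the replicative polymerases, and the sliding clamp with its loader. They were taken by FlyBase symbol from the 17737 genes of the count matrix, of which 15364 had at least 1 count, and the rule itself used symbols only. All 37 were matched to a gene identifier and 36 were detected and tested. The remaining one, Orc3, had 0 counts in all 32 samples, which by sampling alone allows up to 3 counts in a sample. All of its 3315 exonic bases in the annotation are shared with CG34315 on the same strand. How reads shared between genes were counted was not stated, so the 0 counts set no limit on the RNA level of Orc3.

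RNA-Seq was performed on whole mated females of an isogenic Drs-GFP line, a reporter line of the antimicrobial peptide gene drosomycin, and every group carried this same reporter. Smurfs are flies in which a blue food dye leaves the gut and spreads through the body, the sign of a more permeable intestine, and non-Smurfs are flies of the same population and age that kept the dye in the gut. Each sample was a pool of 8 flies, collected with Smurfs that had turned within 1 day (18 samples) or within 5 hours (8 samples), or with Smurfs of unknown time since the transition (6 samples, called mixed). The groups were Smurfs at 20 days (n = 4), 30 days (n = 6) and 40 days (n = 6) and non-Smurfs at 20 days (n = 4), 30 days (n = 6) and 40 days (n = 6). No 5-hour samples were present at 20 days, and the mixed samples analysed with the 30-day groups carried a label of 32 days. All samples came from females of one line and one population, and in a whole fly fewer replicating cells and less RNA per cell cannot be told apart.

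DNA replication starts when the origin recognition complex, with Cdc6 and dup (the fly Cdt1), loads the ring of 6 MCM subunits onto DNA. Kinases then recruit CDC45L and the GINS complex to turn the loaded ring into an active helicase, and the polymerases copy both strands behind it, held by the PCNA clamp. In an adult female these genes are used chiefly in the ovary, where germline and follicle cells divide and endoreplicate, and to a lesser extent in the dividing progenitors of the gut.

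The total count per sample lay between 12164198 and 22798065. On the first principal component of log2(CPM + 1) over all samples, which held 35.7% of the variance, 13 of the 16 Smurf samples lay between 4.499 and 38.4 and the 16 non-Smurf samples between -31.6 and -1.76. The remaining 3 Smurf samples, all at 40 days (5h-c7, 5h-c8 and 1d-p), lay at -13.5, -12.8 and -8.93, among the non-Smurfs, and the main counts that rest on 40-day Smurfs are also given without them. One 40-day non-Smurf sample, 1d-o, stood apart in the replication genes themselves, as described below. Fits without it are given because of these same values. Leaving it out thus raises the members' level in 40-day non-Smurfs by construction.

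Levels are given as CPM, the count of a gene scaled by the library size after TMM normalisation. Divided by exon length, the mean level over all samples was highest for PCNA, the sliding clamp, at 218 CPM per kb. The single-strand binding subunit RpA-70 followed at 157 CPM per kb and geminin, the inhibitor of dup, at 119 CPM per kb. The 6 MCM subunits lay between 49.2 (Mcm3) and 102 CPM per kb (Mcm5). The lowest detected members were the GINS subunits Psf3, Psf1 and Sld5, at 10.8, 13.5 and 18.8 CPM per kb, and the remaining GINS subunit Psf2 was at 24.2 CPM per kb. In raw counts per sample the detected members ran from 94 to 274 counts for Psf1 up to 3595 to 9566 counts for RpA-70, so that the counting error was smallest for the abundant subunits.

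Replication genes were lower in 40-day Smurfs than in 20-day Smurfs. At an adjusted p under 0.05 (edgeR's quasi-likelihood test, Benjamini-Hochberg over all genes tested), 16 of 36 members were called lower and none higher, where 7.06% of all 10353 genes tested were called lower. The difference was negative for 35 of 36 members, with a median log2 fold change (log2FC) of -0.21 beside 0.01 over all genes. The summed level of all members was between 3836 and 4682 CPM in 40-day Smurfs, with a median of 4467 CPM, against 5361, 4861, 5089 and 5017 CPM in the 4 samples of 20-day Smurfs. Every 40-day sum was thus below every 20-day sum. Individually, 17 of 36 members had every 40-day sample below every 20-day sample, which held for 7.5% of all genes tested. These were the 16 called members and Orc4.

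**Figure D1:**
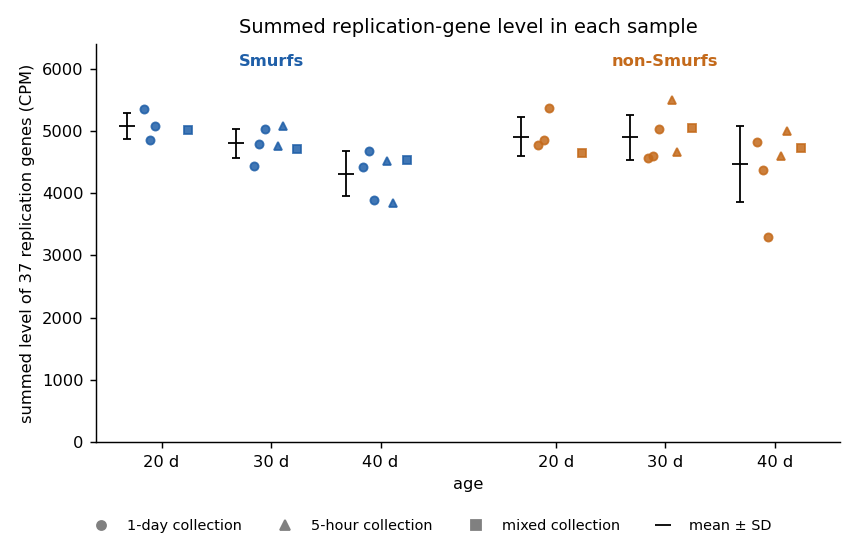
Summed level of the 37 replication genes in CPM (vertical axis, from 0) in each sample, for Smurfs and then non-Smurfs at 20, 30 and 40 days; circles, triangles and squares are samples of 1 day, 5 hours and mixed collection, and the bars are the mean and SD of each group. The 40-day Smurfs lie between 3836 and 4682 CPM, all below the 20-day Smurfs, and 1 sample of 40-day non-Smurfs lies at 3304 CPM, below every other sample.

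All 3 licensing genes were called lower in 40-day Smurfs. Geminin, which blocks relicensing by binding dup, ranged from 87.1 to 133 CPM in 40-day Smurfs, with a median of 106 CPM, against 141, 155, 143 and 142 CPM in 20-day Smurfs. All 6 samples at 40 days lay below the 4 at 20 days, and geminin fell by 0.42 on the log2 scale (SE 0.10, edgeR adjusted p = 0.0125). Cdc6 (chromosome 3L, 8631509 to 8634069 in the BDGP6.54 annotation), the loader ATPase, was between 87.5 and 109 CPM at 40 days, with a median of 99.9 CPM, against 123, 136, 119 and 124 CPM at 20 days. Here too the groups did not overlap, and the log2FC was -0.34 (SE 0.07, edgeR adjusted p = 0.00895). The most abundant of the 3, dup, was at 226 to 283 CPM in 40-day Smurfs (median 275 CPM), against 315, 344, 307 and 332 CPM in 20-day Smurfs. Its lowest value at 20 days was above its highest at 40 days, with a log2FC of -0.28 (SE 0.07, edgeR adjusted p = 0.0125).

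All 6 subunits of the MCM ring were called lower in 40-day Smurfs, with log2FC between -0.41 and -0.22, and none had overlapping groups. Mcm3 (chromosome X, 5323855 to 5326738) moved most. It was measured at 93.0 to 147 CPM in 40-day Smurfs (median 111 CPM), against 156, 171, 147 and 151 CPM in 20-day Smurfs, with a log2FC of -0.41 (SE 0.11, edgeR adjusted p = 0.0202). The highest 40-day value of Mcm3, 146.8 CPM in the mixed sample, was only just under the lowest 20-day value of 147.0 CPM. Mcm6 (chromosome X, 6674387 to 6677176) ranged from 156 to 195 CPM at 40 days with a median of 179 CPM, against 214, 239.6, 209 and 219.8 CPM at 20 days. The log2FC of Mcm6 was -0.30 (SE 0.06, edgeR adjusted p = 0.0099). Mcm5, the subunit with the highest mean count, was at 196 to 249.5 CPM in 40-day Smurfs (median 225 CPM), against 267, 288, 264 and 259.8 CPM in 20-day Smurfs, with a log2FC of -0.27 (SE 0.07). The other subunits dpa (the fly Mcm4), Mcm7 and Mcm2 had log2FC of -0.26, -0.23 and -0.22. Of the exonic bases of Mcm7, 81.7% are also covered by the antisense gene asRNA:CR45871, and the strand setting of the counting was not stated.

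Upstream of the ring, none of the 4 detected subunits of the origin recognition complex was called. Their log2FC lay between -0.21 (Orc2) and -0.12 (Orc5), the smallest adjusted p was 0.0687 (edgeR), and 2 of the 4 had an unadjusted p under 0.05. Orc2 was between 62.7 and 84.4 CPM in 40-day Smurfs, with a median of 71.3 CPM, against 81.5, 85.4, 80.8 and 90.4 CPM in 20-day Smurfs, and the groups overlapped through the 40-day sample 1d-q. Whether the origin recognition genes changed less than the MCM genes was not tested.

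Of the 8 genes of helicase activation, 2 were called, both lower. CDC45L (chromosome X, 1028291 to 1030556), the fly Cdc45 and a core part of the active helicase, had the smallest adjusted p of all members. It ranged from 129.9 to 153 CPM in 40-day Smurfs (median 147 CPM), against 182, 191, 173 and 179.9 CPM in 20-day Smurfs. Again every 40-day sample was below every 20-day sample, and CDC45L fell by 0.32 on the log2 scale (SE 0.05, edgeR adjusted p = 0.0036). The kinase Cdc7 (chromosome X, 6654541 to 6659709), which phosphorylates the loaded ring, was also called, with a log2FC of -0.23 (SE 0.04, edgeR adjusted p = 0.00667). It was at 146 to 165 CPM at 40 days and at 183 to 191 CPM at 20 days. Its activating partner chif (the fly Dbf4), with 259 to 379.7 CPM in 40-day Smurfs and 327 to 339 CPM in 20-day Smurfs, overlapped and was not called (log2FC -0.12, SE 0.07, edgeR adjusted p = 0.249). Part of chif, 19.5% of its exonic bases, is shared with Hyls1 on the same strand.

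The 4 GINS subunits and Mcm10 were not called either, with log2FC between -0.27 (Psf1) and 0.26 (Psf2). Psf2 was the only member with a positive difference, and was singled out after its values were seen. It was measured at 17.6 to 26.8 CPM in 40-day Smurfs (median 21.6 CPM), against 18.5, 19.4, 16.6 and 20.1 CPM in 20-day Smurfs. The groups overlapped, and the adjusted p was 0.131 (edgeR; unadjusted p = 0.0429). Its log2FC was also positive in each of the other comparisons between ages, in Smurfs and in non-Smurfs, and it was called in none of them.

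Among the 8 subunits of the polymerases, 1 accessory subunit each of polymerase alpha and polymerase delta was called. PolA2 (chromosome 3R, 27239163 to 27241228), of the primase complex that starts each new strand, ranged from 82.8 to 102 CPM in 40-day Smurfs (median 94.6 CPM), against 111, 125, 106 and 121 CPM in 20-day Smurfs. The log2FC was -0.31 (SE 0.07, edgeR adjusted p = 0.0129). PolD2 (chromosome 3L, 1775633 to 1777019), of the polymerase that copies the lagging strand, was at 31.7 to 40.7 CPM at 40 days (median 37.8 CPM), against 46.3, 49.1, 42.6 and 48.8 CPM at 20 days. Its groups did not overlap either, with a log2FC of -0.30 (SE 0.08, edgeR adjusted p = 0.0189). The catalytic subunits were not called, with log2FC of -0.15 for PolA1, -0.17 for PolD1 and -0.19 for PolE1. PolA1, the most abundant of the 8, overlapped between 145 to 216 CPM in 40-day Smurfs and 190.5 to 201 CPM in 20-day Smurfs (edgeR adjusted p = 0.247). The primase subunits Prim1 and Prim2 had log2FC of -0.06 and -0.21.

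PCNA, which tethers the polymerases to DNA, ranged from 178 to 221 CPM in 40-day Smurfs with a median of 208 CPM, against 254, 276, 235 and 249 CPM in 20-day Smurfs. All 40-day samples were below all 20-day samples, and PCNA fell by 0.30 on the log2 scale (SE 0.07, edgeR adjusted p = 0.0111). Of the 4 subunits of replication factor C, which opens and closes the clamp, RfC38 was called lower (log2FC -0.22, SE 0.06, edgeR adjusted p = 0.0291), with 25.2% of its exonic bases also covered by Nup160 on the other strand. The large subunit Gnf1, at 218 to 288 CPM in 40-day Smurfs and 284 to 303 CPM in 20-day Smurfs, was not (log2FC -0.20, SE 0.07, edgeR adjusted p = 0.0603), nor were RfC4 (-0.17) and RfC3 (-0.05). Fen1, the nuclease that trims the flaps between lagging-strand fragments, was called lower (log2FC -0.24, SE 0.06, edgeR adjusted p = 0.0228). RpA-70 was at 285 to 394 CPM at 40 days and 322 to 366 CPM at 20 days, with a log2FC of -0.07 (SE 0.07, edgeR adjusted p = 0.508). RpA-70 and Mcm2 are neighbours on chromosome 3R in opposite orientation, with 518 bases between them, and Mcm2 was called lower in the same samples.

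**Figure D2:**
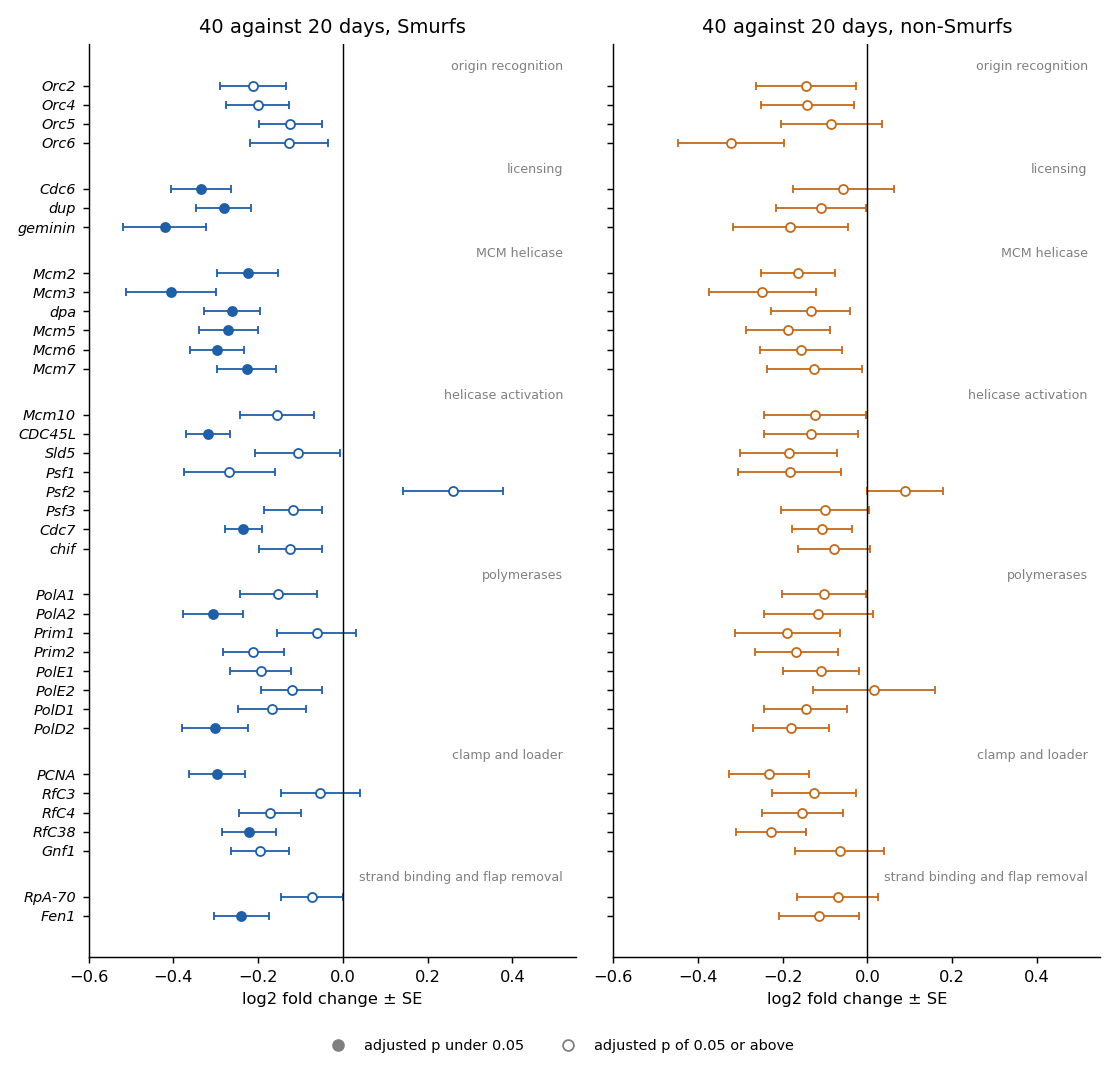
Log2 fold change at 40 against 20 days (horizontal axis, with SE) of the 36 detected replication genes, grouped by role, in Smurfs (left) and non-Smurfs (right); filled points have an adjusted p under 0.05. In Smurfs 35 of 36 points lie below 0 and 16 are filled, in non-Smurfs 34 lie below 0 and none is filled.

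The number of called members in Smurfs depended on single libraries and on which collection times were included. It was 4 without the 20-day Smurf sample 1d-d, where 1.23% of all genes were called lower. It was 5 without the 40-day samples 5h-c7, 5h-c8 and 1d-p, where 0.925% of all genes were called lower, and 0 among the samples of 1 day alone, where 18 members had an unadjusted p under 0.05 and 0.068% of all genes were called lower. The number of calls thus fell over all genes and not among the members alone. In these fits the sign and size stayed close: 35 members were negative in each, with medians of -0.18, -0.22 and -0.23. In the mixed samples, 1 at each age, 33 of 36 members were lower at 40 than at 20 days, with a median log2 ratio of -0.14. Cdc6, Mcm6, CDC45L and Cdc7 stayed called when any 1 Smurf sample was left out, and Mcm5, Mcm6, CDC45L, Cdc7 and PolA2 were the 5 called without 5h-c7, 5h-c8 and 1d-p.

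**Figure D3:**
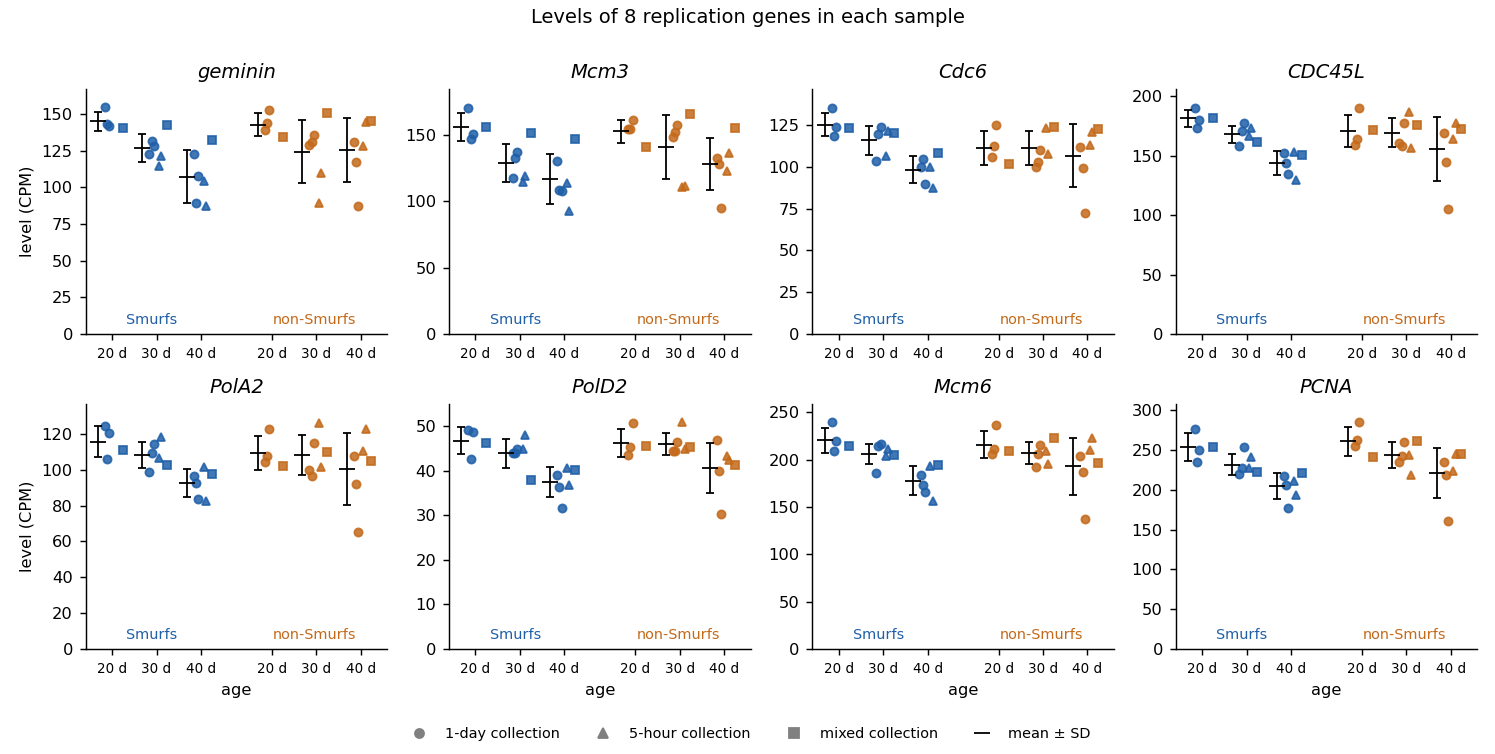
Level in CPM (vertical axis, from 0) of the 8 called replication genes with the largest log2 fold change at 40 against 20 days in Smurfs, in each sample of Smurfs and non-Smurfs at 20, 30 and 40 days; symbols give the collection time and bars the mean and SD. In Smurfs the 40-day samples of each gene lie below the 20-day samples, and in non-Smurfs the ages overlap, as for geminin with 87.0 to 145 CPM at 40 days and 135 to 153 CPM at 20 days.

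The median summed level in Smurfs was 5053, 4773 and 4467 CPM at 20, 30 and 40 days. Between 30 and 20 days in Smurfs, no member was called (edgeR; 2 at an unadjusted p under 0.05, 0 called by DESeq2), where 0.00966% of all genes were called lower, 29 of 36 were negative, and the median log2FC was -0.06. The 3 members with the smallest p were Mcm3 (log2FC -0.28, SE 0.11), Cdc7 (-0.10, SE 0.04) and CDC45L (-0.11, SE 0.05). Between 40 and 30 days in Smurfs, CDC45L was called lower, as 1 of 36 members, where 0.396% of all genes were called lower, and 35 members were negative with a median of -0.14. CDC45L was at 129.9 to 153 CPM at 40 days (median 147 CPM), against 158 to 177 CPM at 30 days (median 168 CPM). Its log2FC was -0.21 (SE 0.05, edgeR adjusted p = 0.0351). This call was lost when Smurf sample M-10, 5h-c3, 5h-c4, 1d-k, 1d-l, 1d-p or 5h-c8 was left out, where at most 0.00968% of all genes were called lower. The count rose to 7 without 1d-j, to 4 without 1d-q and to 8 with DESeq2, where the share of all genes called lower also rose, to 2.3%, 3.07% and 2.44%. It was 0 without 5h-c7, 5h-c8 and 1d-p together and without the mixed samples, where 0% of all genes were called lower. It was also 0 among the samples of 1 day alone (34 negative, median -0.14, 0% of all genes called lower). Among those of 5 hours alone it was 0 as well (35 negative, median -0.20), where 0.0498% of all genes were called lower. These comparisons share their 20-day, 30-day or 40-day samples with one another and with that between 40 and 20 days.

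A slope on age used all 16 Smurf samples at once. It was negative for 35 of 36 members and called for 18, all lower, including all 16 of those called between 40 and 20 days, where 8.41% of all genes were called lower. The median slope was -0.11 log2 units per 10 days, beside 0.00 over all genes, and the count was also 18 when the mixed sample of the middle age was set at 32 days. Without 5h-c7, 5h-c8 and 1d-p, a fit added after the data were seen, it was 6, where 1.51% of all genes were called lower, with 35 members negative and a median slope of -0.11.

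In non-Smurfs no member was called between 40 and 20 days (edgeR; 3 members at an unadjusted p under 0.05, 0 called by DESeq2), where 0.322% of all 10260 genes tested were called lower. The difference was negative for 34 of 36 members, with a median log2FC of -0.13 beside -0.01 over all genes, and Psf2 and PolE2 were positive. The summed level was 4817, 4381, 3304, 4597, 4998 and 4725 CPM in the 6 samples of 40-day non-Smurfs, against 4780, 4856, 5367 and 4641 CPM in 20-day non-Smurfs. The groups overlapped, and sample 1d-o, at 3304 CPM, was lower than any of the 31 other samples. Without 1d-o no member was called, where 0.224% of all genes were called lower. The median log2FC moved to -0.06 and 32 members were negative.

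The 3 members with the smallest p in non-Smurfs were RfC38, Orc6 and PCNA. RfC38 was at 50.9 to 70.7 CPM in 40-day non-Smurfs (median 62.9 CPM), against 68.8, 75.4, 69.7 and 82.1 CPM in 20-day non-Smurfs, with overlapping groups and a log2FC of -0.23 (SE 0.08, edgeR adjusted p = 0.176). PCNA ranged from 161 to 245 CPM at 40 days with a median of 229.5 CPM, against 241, 255, 262 and 285 CPM at 20 days (log2FC -0.23, SE 0.09, edgeR adjusted p = 0.2296). Orc6, which binds DNA as part of the origin recognition complex, was the only member with every 40-day sample below every 20-day sample, where this held for 2.41% of all genes. Orc6 was at 14.4 to 20.5 CPM in 40-day non-Smurfs (median 18.2 CPM), against 21.2, 21.8, 22.8 and 22.96 CPM in 20-day non-Smurfs, with a log2FC of -0.32 (SE 0.13, edgeR adjusted p = 0.214).

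Among the non-Smurf samples of 1 day, which include 1d-o, 1 member (RfC38) was called lower, where 1.36% of all genes were called lower, 35 were negative and the median was -0.28, beside -0.23 in the Smurf samples of 1 day. In the mixed non-Smurf samples, 1 at each age, 13 of 36 members were lower at 40 than at 20 days, with a median log2 ratio of 0.03. Between 30 and 20 days in non-Smurfs no member was called, where 0.00975% of all genes were called lower (edgeR; 0 members at an unadjusted p under 0.05, 0 called by DESeq2), and the median was 0.00. Geminin (-0.19), PolE1 (0.11) and chif (0.11) had the smallest p there. Among the samples of 1 day alone all 36 were negative between 30 and 20 days, with a median of -0.10. Between 40 and 30 days none was called either, nor was any of all genes called lower (0%; 1328 of all genes had an unadjusted p under 0.05 in either direction, and DESeq2 called 0 members). The median was -0.13, 7 members had an unadjusted p under 0.05, and the smallest p belonged to Orc6 (-0.33), PolE1 (-0.22) and chif (-0.19). Without 1d-o this median was -0.06, with 31 members negative and 2 at an unadjusted p under 0.05. The slope on age in non-Smurfs was called for 0 members, where 0.214% of all genes were called lower, with 3 at an unadjusted p under 0.05 and a median of -0.07 log2 units per 10 days.

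That members were called in Smurfs and not in non-Smurfs does not show that the change with age differed between them. The difference itself, tested in a model of all 6 groups, was called for no member, where 0.256% of all genes were called in either direction (edgeR; 0 members at an unadjusted p under 0.05, 0 called by DESeq2). It was negative, toward a larger decrease in Smurfs, for 31 of 36 members, with a median of -0.08. The smallest p belonged to Cdc6 (-0.29, SE 0.14, edgeR adjusted p = 0.402), Cdc7 (-0.14, SE 0.08) and CDC45L (-0.20, SE 0.13). Without 1d-o, which was singled out by its low values in these same genes, the median of the difference was -0.15. In that fit 10 members had an unadjusted p under 0.05, still with none called, where 19 of all 10530 genes were called in either direction. A move of this sign follows from leaving out a low non-Smurf sample. Without 5h-c7, 5h-c8 and 1d-p none was called, 28 were negative and the median was -0.10. Among the samples of 1 day alone the median was -0.01 and 19 of 36 were negative.

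Differences between Smurfs and non-Smurfs were small. Over all ages, no member was called between Smurfs and non-Smurfs, where 22.7% of all 10052 genes tested were called in either direction (edgeR; 0 members at an unadjusted p under 0.05, 0 called by DESeq2). The log2FC of the members ran from -0.10 to 0.05, with a median of -0.03. The 3 with the smallest p were PCNA, Mcm7 and Psf2. PCNA averaged 227 CPM in the 16 Smurf samples and 239 CPM in the 16 non-Smurf samples, with a log2FC of -0.09 (SE 0.06, edgeR adjusted p = 0.234). Mcm7 averaged 219 CPM in Smurfs and 231 CPM in non-Smurfs (log2FC -0.09, SE 0.06) and Psf2 20.5 CPM in Smurfs and 21.6 CPM in non-Smurfs (log2FC -0.09, SE 0.06). Without the non-Smurf sample 1d-o, singled out by its low values in these same genes, 2 members were called, where 25.9% of all genes were called in either direction. Both were lower in Smurfs: Mcm7 at -0.12 (edgeR adjusted p = 0.0428) and PCNA at -0.12 (edgeR adjusted p = 0.0478). Without 5h-c7, 5h-c8 and 1d-p none was called, where 29% of all genes were called in either direction. In that fit 19 of 36 members were negative and the median was 0.00. The sign of the median also differed between the collection times. Among the samples of 1 day, which include 1d-o, 13 of 36 members were negative and the median was 0.03. Among those of 5 hours, which hold no 20-day samples, 32 were negative and the median was -0.10. These sets thus differ in more than collection time, and its own part was not tested.

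**Figure D4:**
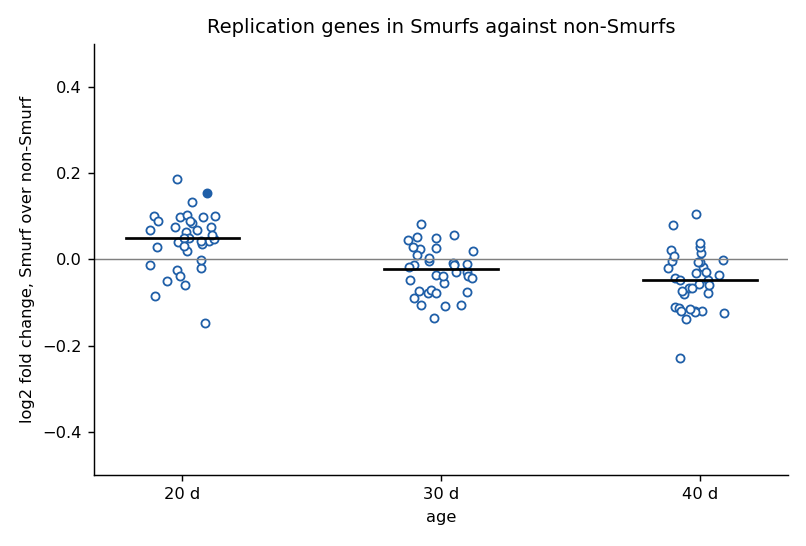
Log2 fold change in Smurfs over non-Smurfs (vertical axis) of the 36 detected replication genes at 20, 30 and 40 days, 1 point a gene, with the median as a line; the filled point has an adjusted p under 0.05. All points lie between -0.23 and 0.19, and the medians are 0.05, -0.02 and -0.05 at 20, 30 and 40 days.

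Within ages, the sign of the small difference was not the same. At 20 days 27 of 36 members were higher in Smurfs, with a median of 0.05 beside 0.03 over all genes, and 1 was called, where 19.1% of all genes were called in either direction. This was Cdc7, at 191, 184, 183 and 189 CPM in 20-day Smurfs, against 169.6, 163, 171 and 178 CPM in 20-day non-Smurfs. Its log2FC was 0.15 (SE 0.04, edgeR adjusted p = 0.0334). The call was lost with any 1 sample left out except the non-Smurf sample 1d-c, without which Cdc7 and Cdc6 were called, 2 in all. At 30 days no member was called, where 14.4% of all genes were called in either direction (edgeR; 0 members at an unadjusted p under 0.05, 0 called by DESeq2), and the median was -0.02. Cdc7 (0.08), Psf2 (-0.11) and chif (-0.11) had the smallest p. At 40 days no member and none of all genes (0%) was called (edgeR; 0 members and 650 of all genes at an unadjusted p under 0.05, 0 members called by DESeq2), 29 of 36 members were lower in Smurfs, and the median was -0.05. The smallest p belonged to geminin (-0.23, SE 0.13), PolD2 (-0.12, SE 0.09) and PCNA (-0.12, SE 0.09). Without 1d-o, singled out by its low values in these same genes, the 40-day median was -0.12 with 11 members at an unadjusted p under 0.05. In that fit no member and 0 of all 10127 genes were called. Without the 40-day Smurf samples 5h-c7, 5h-c8 and 1d-p no member was called and the median was -0.06. Among the 40-day samples of 1 day, which include 1d-o, the median was 0.04, and among those of 5 hours it was -0.13.

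Other genes that accompany replication were lower in 40-day Smurfs as well. Of 19 genes (3 further entries of the list were not analysed here) for other replication steps, chromatin assembly and nucleotide supply, 7 were called lower than in 20-day Smurfs, where 7.06% of all genes were called lower. All 19 were negative and the median log2FC was -0.21. The largest called changes were those of dUTPase, which keeps uracil out of DNA (-0.42, SE 0.12, edgeR adjusted p = 0.0287), and of Caf1-105 (-0.28, SE 0.06) and Caf1-180 (-0.24, SE 0.06), which place histones on new DNA. Of 26 cell cycle regulators 8 were called lower, beside the same 7.06% of all genes, 25 were negative and the median was -0.17. The largest were the retinoblastoma-family repressor Rbf (-0.28, SE 0.05, edgeR adjusted p = 0.00678), the S-phase cyclin CycE (-0.28, SE 0.09) and fzy, an activator of the anaphase-promoting complex (-0.27, SE 0.08). In non-Smurfs, 0 of the 19 and 0 of the 26 were called between 40 and 20 days, where 0.322% of all genes were called lower, with medians of -0.13 and -0.07. There, 5 of the 19 and 0 of the 26 had an unadjusted p under 0.05. Without the Smurf samples 5h-c7, 5h-c8 and 1d-p, a fit added after the data were seen, 0 of the 19 (edgeR; 9 at an unadjusted p under 0.05) and 1 of the 26 (Rbf) were called lower in 40-day Smurfs, and the medians were -0.18 and -0.15. In that fit 0.925% of all genes were called lower, so the number of calls fell over all genes as well.

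**Figure D5:**
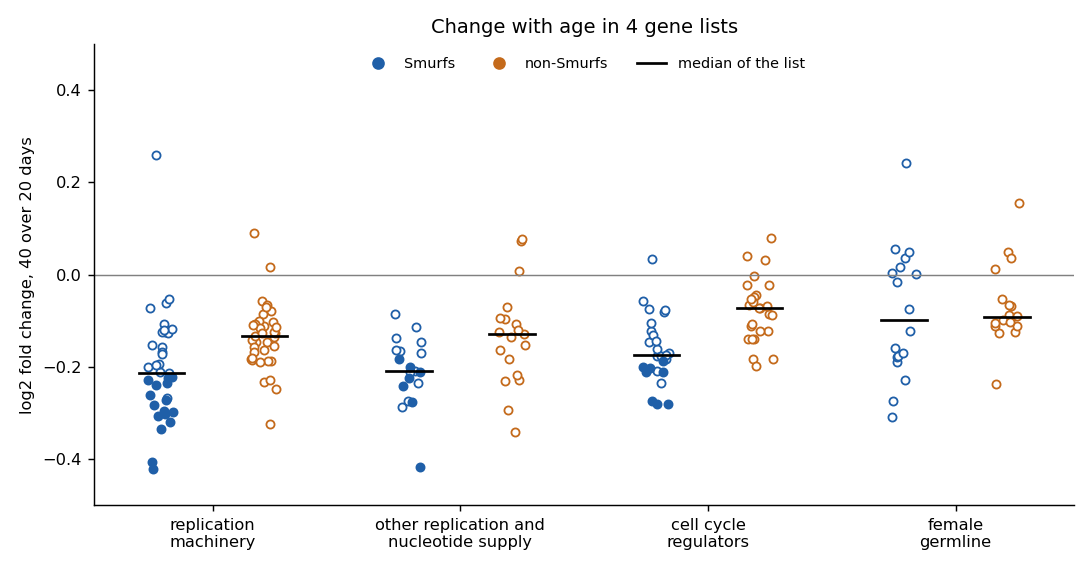
Log2 fold change at 40 against 20 days (vertical axis) of the genes of 4 lists, in Smurfs (blue, left of each pair) and non-Smurfs (orange, right of each pair); filled points have an adjusted p under 0.05 and lines are medians. In Smurfs the medians are -0.21, -0.21, -0.17 and -0.10 from left to right, and in non-Smurfs -0.13, -0.13, -0.07 and -0.09.

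Markers of the ovary and of gut progenitors gave the following values in the same comparisons. Of 18 female germline genes such as vas and osk, 0 were called in Smurfs between 40 and 20 days (edgeR; 4 at an unadjusted p under 0.05), where 17.6% of all genes were called in either direction. Their median was -0.10, and none was at 0 counts in any sample. Their summed level was 4006 to 5724 CPM in 40-day Smurfs and 4682 to 4992 CPM in 20-day Smurfs. The groups overlapped through the 40-day sample 1d-q alone, at 5724 CPM, and the other 40-day sums were 4006 to 4659 CPM. Of 19 eggshell genes of follicle cells, 0 were called (2 at an unadjusted p under 0.05) and 18 were positive, with a median of 1.16. Their sum was 5.84 to 2270 CPM in 40-day Smurfs and 8.45 to 1420 CPM in 20-day Smurfs, and 7 of the 19 were at 0 counts in at least 1 sample. In the 40-day Smurf samples 5h-c7, 5h-c8 and 1d-p the eggshell sum was 2270, 1178 and 1820 CPM, against 5.84, 7.20 and 453 CPM in the other 3. Without those samples the eggshell median between 40 and 20 days in Smurfs was -3.80, of the opposite sign, with 18 of 19 negative. In that fit 0 were called and 7 had an unadjusted p under 0.05 (edgeR), where 3.61% of all genes were called in either direction. The germline median was -0.09. In non-Smurfs 0 of 18 germline genes and 2 of 19 eggshell genes, yellow-g and yellow-g2, were called between 40 and 20 days, both lower. There, 1.89% of all genes were called in either direction and 0.322% were called lower. All 19 eggshell genes were negative with a median of -0.74. Between Smurfs and non-Smurfs over all ages, 9 of the 19 eggshell genes were called lower in Smurfs, where 11.3% of all genes were called lower. The median of the eggshell genes was -2.01, while the median of the replication genes was -0.03. Of the markers of intestinal progenitors, Dl and Sox21a were measured, esg was not analysed, and neither measured gene was called between 40 and 20 days in Smurfs. The 2 genes moved in opposite directions, with log2FC of -0.23 and 0.34, and 2 had an unadjusted p under 0.05 (edgeR). Their sum, which hides this, was 106 to 150.3 CPM in 40-day Smurfs and 148 to 157 CPM in 20-day Smurfs. The part of these cell types in the change of the replication genes was not tested.

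In sample 1d-o the replication genes were not alone. Its sum was 5959 CPM for the cell cycle regulators, where the 5 other 40-day non-Smurf samples had 7581 to 8609 CPM, and 4123 CPM for the germline genes, where the others had 4566 to 4969 CPM. Its eggshell sum of 3778 CPM was the highest of its group. The part of these cells in the low value of 1d-o was not tested.

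The median relative standard deviation between replicates was lower for the replication genes than over all genes compared, in each group but one. The relative standard deviation of the members had a median of 5.17%, 7.41% and 8.86% in Smurfs at 20, 30 and 40 days, beside 7.47%, 9.97% and 13.4% over the 10072 genes with a mean count of at least 10. In non-Smurfs it was 7.22%, 9.85% and 14.1% at 20, 30 and 40 days, beside 8.49%, 10.8% and 13.045%. The 40-day non-Smurfs, which hold sample 1d-o, were thus the one group in which the members' median was above that of all genes. The detected members had mean counts from 162.5 (Psf1) to 5839 (RpA-70) and were not compared with genes of like counts. The part of the count level in this difference was not tested. These medians are descriptions of each group and their order was not tested.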

How the data were processed

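RNA-Seq was analysed for 32 samples in 6 groups. The authors prepared stranded, poly(A)-selected libraries, sequenced them paired-end, used HISAT2 for alignment (BDGP6.95) and featureCounts for counting. Strand and multi-mapping settings of the counting were not stated. The deposited values are whole-number counts per gene, not normalized, and replicates were not pooled. Total counts per sample ran from 12164198 to 22798065, which sets the precision. The submitters' labels gave each sample its state, age and collection time.

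Counts were tested with edgeR 4.0.16 (R 4.3.3): TMM scaling, filterByExpr, glmQLFit and glmQLFTest, with Benjamini-Hochberg adjustment over all genes tested and a threshold of 0.05. Ages were compared in 1 fit per state, states in all samples or per age, and the difference in a model of 6 groups. Each SE is the absolute log2FC over the square root of its F statistic. Per-sample levels are TMM-scaled CPM, tables were made with Python 3.11.15 and pandas, and exon lengths, overlaps and coordinates come from the Ensembl 115 annotation BDGP6.54, joined by gene identifier. The samples of a group are separate pools of flies, and counts of 72 pairs within groups differed by more than sampling noise (chi-square per degree of freedom 6.79 to 117). The fits were tested on simulated data.

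All members were counted by role. With values per sample were given up to 8 called members with the largest log2FC between 40 and 20 days in Smurfs, up to 5 in non-Smurfs and between states, up to 3 in each other comparison (the 3 smallest p where none was called), and the most abundant member of each role. Of other lists, up to 3 called genes were named. Members and lists were chosen with earlier results of these data known. Alternatives were DESeq2 1.42.0, RLE scaling, other filters, collection terms, subsets of samples and leaving out each sample. A search of promoter motifs was not run.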

Additional observations from a re-analysis of the deposited data

Results flagged for a closer look

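A sample whose distance to its nearest neighbour took an unusually large share of its group's range (Dixon's test) was found in 11 of 132 groups of values. Chance gives about 1 in 20 for independent groups, and these were not independent. They are genes measured in the same samples, and the sum holds its members again. The non-Smurf sample 1d-o at 40 days was lowest for 6 of the 11 groups. Its summed level of the replication genes was 3304 CPM, where the 5 other samples had 4381 to 4998 CPM. In single genes it had 129 CPM for Cdc7 (the others 154 to 168 CPM), 175 CPM for Mcm5 (229 to 259 CPM) and 161 CPM for PCNA (218 to 245 CPM). It was also lowest for Orc2 with 49.9 CPM (the others 72.0 to 84.6 CPM) and for PolA1 with 126 CPM (the others 169.7 to 191 CPM).

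The non-Smurf sample 5h-c1 at 30 days was highest for 4 genes. It had 342 CPM for Gnf1 (the others 265 to 293 CPM), 283 CPM for Mcm7 (221 to 244 CPM), 50.9 CPM for PolD2 (44.3 to 46.5 CPM) and 406 CPM for chif (306 to 339.7 CPM). The non-Smurf sample 1d-c at 20 days was highest for Mcm6, with 237 CPM where the others had 206 to 211 CPM. No Smurf sample stood apart in this way, among genes that were in part chosen for their called change with age in Smurfs.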

How the results depend on the processing

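The number of called members between 40 and 20 days in Smurfs, 16, was 0 among the samples of 1 day only, 5 without the 40-day Smurfs 5h-c7, 5h-c8 and 1d-p, and 4 to 24 when 1 sample was left out (4 without 1d-d, 24 without 1d-q). As a slope on age without these 3 samples, a fit added after the data were seen, it was 6. Without 1d-d 1.23% of all genes were called lower, and without 1d-q 11.7%. The number of called members stayed between 12 and 18 under the other alternatives, where 3.45% to 8.6% of all genes were called lower. In non-Smurfs it was 1 among the samples of 1 day only, and 0 to 0 with 1 sample left out. Between 40 and 30 days in Smurfs, 1 became 8 with DESeq2, and 0 with no filter on low counts, without the mixed samples, with samples of 1 day only, with samples of 5 hours only and without 5h-c7, 5h-c8 and 1d-p. Where it became 0, at most 0.0498% of all genes were called lower. The number of called members ran from 0 to 7 with 1 sample left out. Between Smurfs and non-Smurfs it was 0 to 2 with 1 sample left out. At 20 days, 1 became 0 with no filter, in the model of 6 groups, without the mixed samples and with samples of 1 day only, and ran from 0 to 2 with 1 sample left out. The other counts were 0 under every alternative run. Subsets test fewer samples by construction. Other causes were not tested.

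For the log2FC of the named called members (8 between 40 and 20 days in Smurfs, CDC45L between 40 and 30 days and Cdc7 between states at 20 days), 199 alternative values kept their side of the threshold, 43 did not and 0 changed sign. Samples of the 2 states were collected together. Blocking on the collection event, 0 members were called between Smurfs and non-Smurfs, with 2 at an unadjusted p under 0.05 and 28 negative, where 30.2% of all genes were called in either direction. No paired analysis was possible sample by sample because replicate numbers are not shared between groups. Counts of members of low level, such as Psf1 with 94 to 274 counts, limit their precision.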
